A study of Mus musculus with 4 samples.

Results

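Semaphorins are guidance ligands that steer growing axons, blood vessels and migrating cells. Plexins are their receptors, and neuropilins are the co-receptors through which most secreted semaphorins reach a plexin. Inside the cell, plexins act on small GTPases and so on the actin cytoskeleton and on adhesion. In skeletal muscle the family is best known for Sema3a, which activated satellite cells release and which acts on motor axons. The family was taken by gene symbol, as all semaphorins of classes 3 to 7, all plexins A to D and both neuropilins, and the rule found 31 genes of the 24011 tested: 20 semaphorins, 9 plexins and 2 neuropilins.

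Expression was read from 4 arrays of the Affymetrix GeneChip Mouse Gene 2.1 ST type, 2 labelled Rspo1-null and 2 labelled wild-type, each from an independent culture. All cells were primary myoblasts from limb muscles of mice on the C57bl6N/sv129 background, and the labels place them at 24 h in DMEM with 2% horse serum, after 5 passages in Ham F10 with 20% serum and 2 ng/ml bFGF. Rspo1-null animals lack the secreted Wnt activator R-spondin1 in every tissue. The study's methods add that satellite cells were purified by magnetic sorting. The study counts heterozygous mice as well as wild-type mice among its controls, while the labels of these arrays say only wild-type. Whether any control array held heterozygous cells is not known here. Its methods also name fewer passages than the labels and a different bFGF concentration. The comparison asked how these genes differ in myocytes that lack Rspo1.

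Values are deposited log2 values, on which 1 unit is a 2-fold difference. A value was called above background at 4.76 or more, which is the 95th percentile of the values of 1370 genes for olfactory or vomeronasal receptors, and genes with the means of both genotypes under this level are called dim. Rspo1 itself had 5.29 and 5.33 in the Rspo1-null arrays, against 5.71 and 5.84 in the wild-type arrays, a log2 difference of -0.46 (adjusted p = 0.999 from limma) that leaves a signal above background in both Rspo1-null arrays. It passed an unadjusted p of 0.05, but not with an intensity trend, with the replicate block, or without Rspo1-null 1 (-0.44), Rspo1-null 2 (-0.48) or wild-type 2 (-0.40). How its probes lie relative to the deletion is not known here, so this is a partial check of the labels. The arrays also differed across genotypes. The female-specific transcript Xist was at 10.38 in Rspo1-null 1 and 10.39 in wild-type 2, while the Y-linked Eif2s3y was at 8.51 in Rspo1-null 2 and 8.19 in wild-type 1, so each genotype holds 1 array of each kind. All 9 myocyte markers, such as Myog, were lower in both arrays with Xist than in both arrays with Y-linked transcripts. Fibroblast, endothelial and T cell markers were dim throughout, with 5, 6 and 4 measured genes, none of them above 4.33 on any array. Of the other marker lists, 0 of 2 Schwann cell, 2 of 4 neuron, 1 of 4 macrophage and 2 of 4 pericyte or smooth muscle genes were not dim. Their ranges over the 4 arrays were 1.33 for Tubb3, 0.34 for Rbfox3, 0.38 for Cd68, 2.01 for Rgs5 and 0.89 for Cspg4. Rgs5 had 6.65 and 4.64 in Rspo1-null and 5.80 and 5.14 in wild-type arrays. Tubb3 had 9.16 and 8.74 against 7.83 and 8.72, without overlap between genotypes. In RNA of whole cultures, fewer cells of a type and less RNA per cell cannot be told apart.

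No semaphorin, plexin or neuropilin passed the test between Rspo1-null and wild-type myocytes. At an unadjusted limma p of 0.05 the count was 0 of 31, where 760 of all genes, or 3.17%, passed (1.2% higher and 1.97% lower in Rspo1-null arrays), and at an adjusted p of 0.05 the count was 0 of 31 and 0 of 24011 genes (0%). The methods' one-way ANOVA also gave 0 of 31 at an unadjusted p of 0.05, against 1139 of all genes. The mean was higher in the Rspo1-null arrays in 16 of the 31 genes and lower in 15, with a median log2 difference of 0.0012, beside -0.026 for all genes. Cyclic loess gave 15 members higher and 16 lower, and median centring gave 19 higher and 12 lower. Both Rspo1-null arrays lay above both wild-type arrays in 4 members (Sema7a, Sema4b, Plxnb1 and Sema4g) and below both in 4 others (Plxnd1, Sema4c, Plxnc1 and Sema4a). That is 8 of 31, where the genotypes did not overlap in 31.2% of all genes (Rspo1-null above in 12.1%, below in 19.1%). The Rspo1-null array was on the same side of the wild-type array with the same sex-linked transcripts in both such pairs in 18 of 31 members, and in 53.9% of all genes. The standard error was larger than the difference itself in 20 of the 31. For 19 members the 95% interval of the difference lay within 1 log2 unit of 0 on both sides, and for the other 12 it reached past 1.

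**Figure D1:**
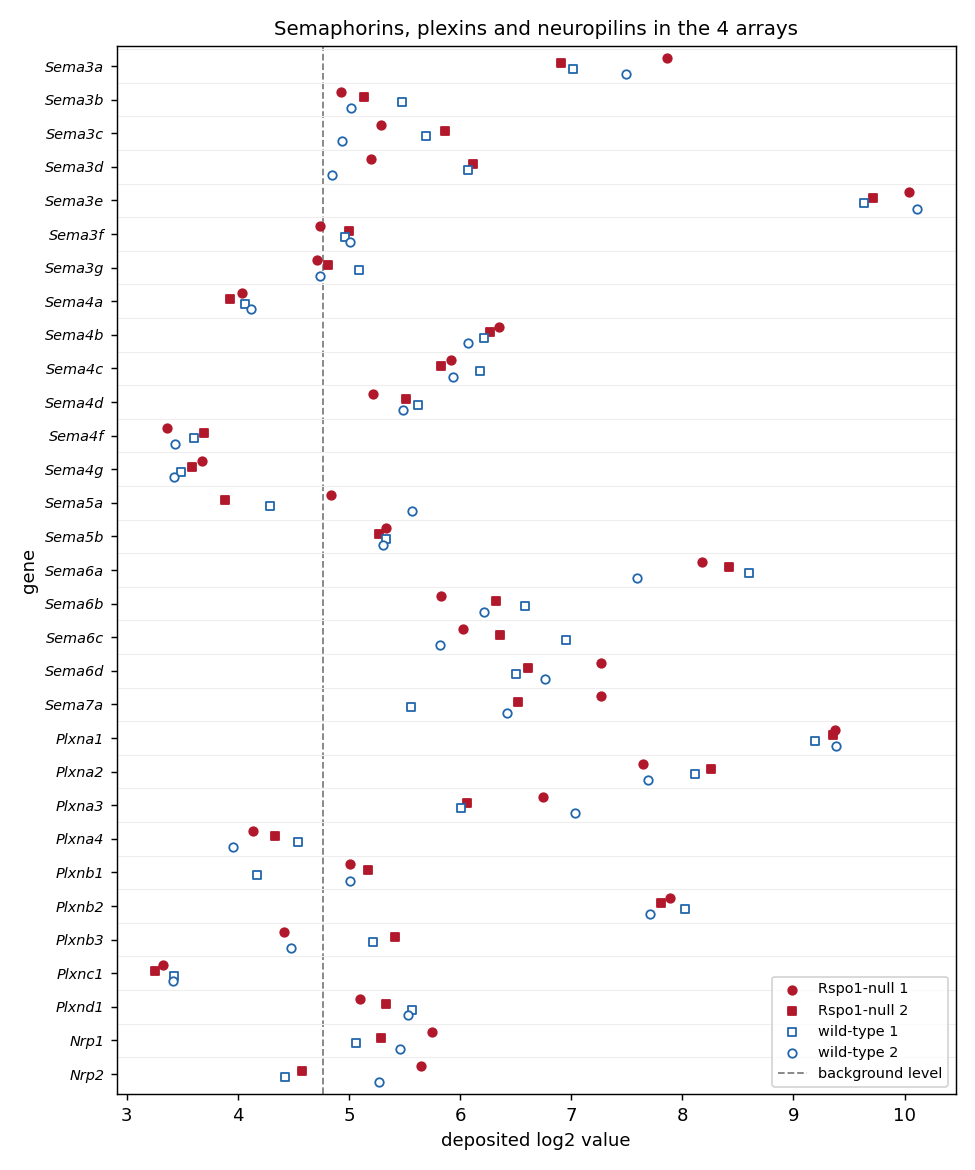
Deposited log2 value (x axis) of each of the 31 genes (y axis) in the 4 arrays. Red filled symbols are Rspo1-null and blue open symbols wild-type arrays, circles are the arrays with Xist and squares those with Y-linked transcripts, and the dashed line is the background level of 4.76. In Sema7a both red symbols lie to the right of both blue ones, at 7.27 and 6.52 against 5.56 and 6.42. Within each colour its circle also lies to the right of its square. In Sema3d the circles part from the squares.

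Sema7a, a semaphorin anchored in the membrane by a lipid tail that signals through plexin C1 and integrin β1, had 7.27 and 6.52 in the Rspo1-null arrays, against 5.56 and 6.42 in the wild-type arrays. Both Rspo1-null arrays were above both wild-type arrays, although Rspo1-null 2 and wild-type 2 lay close together. The log2 difference was 0.91 (standard error 0.40, 95% interval -0.14 to 1.96), or 1.87-fold, with an adjusted p of 0.999 from limma. Of all genes, 0.833% differed by at least as much in either direction, and of the genes that were not dim 1.22% did. Sema7a is described here as the member with the largest difference of the 31. These shares, and its rank given below, are therefore those of a gene picked as an extreme, and do not measure how unusual it is. Rspo1-null 1 exceeded wild-type 2, the other array with Xist, by 0.85, and Rspo1-null 2 exceeded wild-type 1, the other array with Y-linked transcripts, by 0.97. With these pairs as a block, a fit added after the values had been seen, the gene passed an unadjusted p of 0.05, and its adjusted p was 0.814. The adjusted p lay between 0.675 and 1 over all settings run. By unadjusted p it ranked 48 of 24011 in the blocked fit. The difference was 1.28 without Rspo1-null 2 and 1.34 without wild-type 2, both past an unadjusted p of 0.05, and it was 0.53 without Rspo1-null 1 and 0.47 without wild-type 1, neither past it. In these fits the genotype left with 1 array is assumed to vary like the other.

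The receptors of Sema7a were measured on the same arrays. Plxnc1, its plexin, was below background on every array, with 3.33 and 3.25 in Rspo1-null and 3.43 and 3.41 in wild-type arrays. Itgb1, the integrin β1 chain, varied little, with 9.45 and 9.44 in Rspo1-null and 9.46 and 9.44 in wild-type arrays. Itga1, which encodes an integrin chain that pairs with it, was dim, at 3.09 and 2.85 against 3.21 and 2.92. The sequence before the start of Sema7a is shown because this gene has the lowest unadjusted p of the family. It is the RefSeq promoter window of the mouse assembly GRCm38.p6 without its transcribed part, 250 bases on the plus strand at chr9:57939862-57940111, and the capitals mark its single E-box (CANNTG, the core that MyoD family factors bind).
Sema7a: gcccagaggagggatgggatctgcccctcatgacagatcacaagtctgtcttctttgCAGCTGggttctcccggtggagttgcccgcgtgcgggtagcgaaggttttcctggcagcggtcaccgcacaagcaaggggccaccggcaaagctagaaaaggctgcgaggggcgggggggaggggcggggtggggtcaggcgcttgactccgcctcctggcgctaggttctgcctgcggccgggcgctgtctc
An E-box of the form CAGCTG stood in 6 of the 37 windows of the 26 members matched to RefSeq, and in 13% of all 32851 windows, searched on both strands. Any E-box stood in 19 of the 37 and in 66.2% of all. The TCF/LEF core CTTTGAT, bound by the factors that β-catenin activates, stood in 1 of the 37 and in 3.21% of all.

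**Figure D2:**
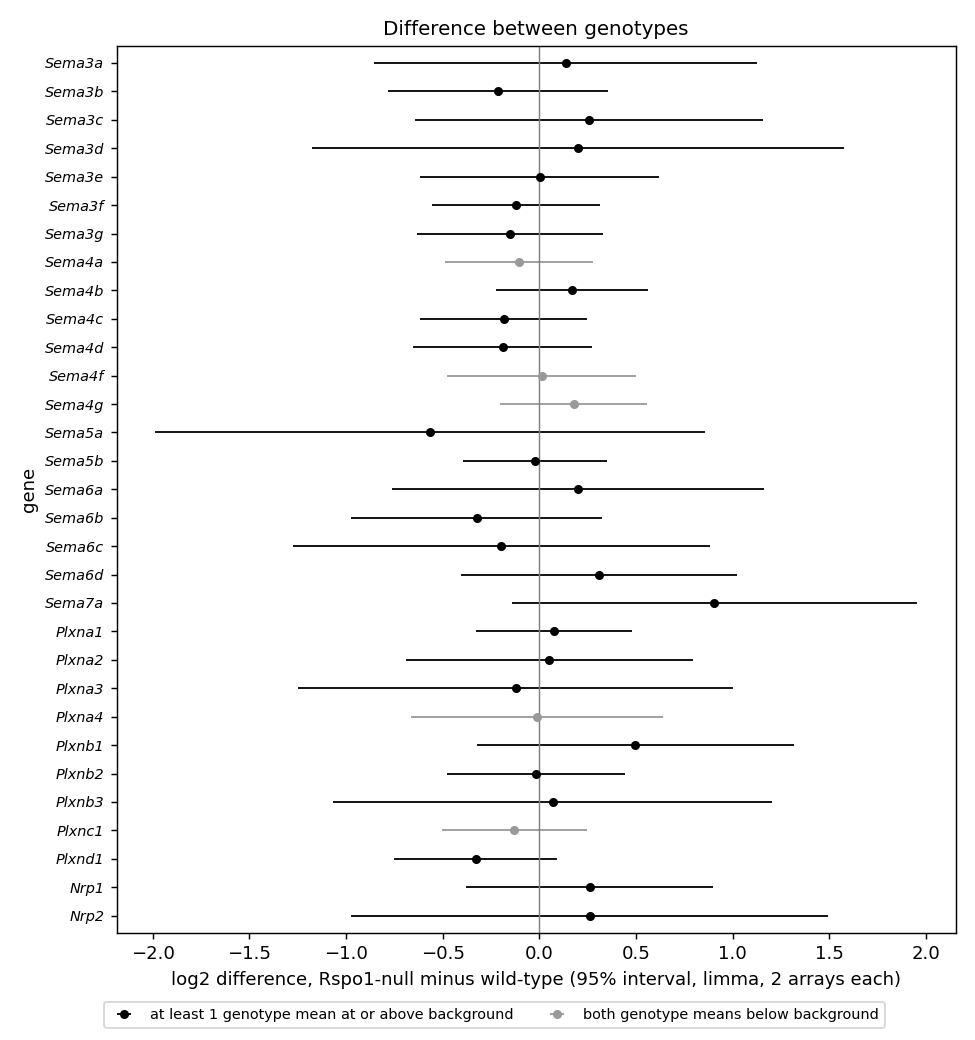
Log2 difference, Rspo1-null minus wild-type (x axis), with its 95% interval from limma (2 arrays each) for each of the 31 genes (y axis). Black points have at least 1 genotype mean at or above background and grey points have both below it. Every interval crosses 0, and that of Sema7a, from -0.14 to 1.96, and that of Plxnd1, from -0.75 to 0.09, come nearest to leaving it.

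Class 3 semaphorins are secreted. All 7 were measured and none was dim, and the genotypes overlapped in each of them. Sema3a had 7.86 and 6.91 in the Rspo1-null arrays, against 7.01 and 7.49 in the wild-type arrays, a difference of 0.14 (standard error 0.38). Its high arrays were Rspo1-null 1 and wild-type 2, and the order within the pairs was mixed, with 0.38 between the arrays with Xist and -0.10 between the others. Sema3d, which patterns veins in the mouse, had 5.20 and 6.12 in Rspo1-null and 6.07 and 4.84 in wild-type arrays. Here the high arrays were the other pair, Rspo1-null 2 and wild-type 1, and the difference between genotypes was 0.20 (standard error 0.52). Sema3c, needed for the cardiac outflow tract, followed the same order with 5.29 and 5.86 against 5.70 and 4.94 (difference 0.26, standard error 0.34). Sema3e, which binds plexin D1 without a neuropilin, had 10.04 and 9.72 in Rspo1-null and 9.64 and 10.12 in wild-type arrays. Its genotype means were alike, with a difference of 0.0012 and a 95% interval from -0.62 to 0.62. Sema3b had 4.93 and 5.13 in Rspo1-null arrays, against 5.48 and 5.02 in wild-type arrays (difference -0.21, standard error 0.22). Sema3f, a ligand of neuropilin 2, had 4.74 and 5.00 against 4.97 and 5.01, with Rspo1-null 1 below background. Sema3g, another neuropilin 2 ligand, had 4.71 and 4.81 against 5.09 and 4.74, with Rspo1-null 1 and wild-type 2 below it. Their differences were -0.12 for Sema3f and -0.15 for Sema3g, both smaller than their standard errors of 0.16 and 0.18.

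The promoter windows of Sema3a and Sema3d are shown because these secreted ligands were high in opposite pairs of arrays. Both are 250 bases on the plus strand of GRCm38.p6, at chr5:13396534-13396783 for Sema3a and chr5:12382916-12383165 for Sema3d, with E-boxes in capitals.
Sema3a: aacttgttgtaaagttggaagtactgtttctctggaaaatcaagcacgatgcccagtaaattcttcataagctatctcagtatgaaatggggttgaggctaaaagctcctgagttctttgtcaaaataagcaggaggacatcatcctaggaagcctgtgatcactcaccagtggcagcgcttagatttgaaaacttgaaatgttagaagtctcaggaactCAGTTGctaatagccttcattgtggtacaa
Sema3d: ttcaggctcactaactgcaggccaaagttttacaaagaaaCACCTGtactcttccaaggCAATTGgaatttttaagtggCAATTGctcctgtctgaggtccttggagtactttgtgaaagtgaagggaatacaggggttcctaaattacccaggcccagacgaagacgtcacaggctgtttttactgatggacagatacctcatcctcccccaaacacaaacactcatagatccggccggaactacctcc
Sema3a holds 1 E-box and Sema3d 3. Neither holds the TCF/LEF core in this window.

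Class 4 semaphorins span the membrane. Of 6 measured, 3 were dim (Sema4a, Sema4f and Sema4g) and 3 were not. Sema4b had 6.35 and 6.27 in the Rspo1-null arrays, against 6.22 and 6.07 in the wild-type arrays, so that the genotypes did not overlap, with a difference of 0.17 (standard error 0.15). Sema4c, a plexin B2 ligand that promotes myogenic differentiation in mouse cells, went the other way without overlap, with 5.92 and 5.83 against 6.18 and 5.93 (difference -0.18, standard error 0.16). Both gaps were small: within the arrays with Xist the difference of Sema4c was -0.017. Sema4d, the ligand of plexin B1, had 5.21 and 5.51 in Rspo1-null and 5.62 and 5.48 in wild-type arrays (difference -0.19, standard error 0.18).

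Class 5 semaphorins carry thrombospondin repeats outside the cell. Sema5a, a ligand of plexin B3, had 4.84 and 3.89 in the Rspo1-null arrays, against 4.29 and 5.57 in the wild-type arrays. Rspo1-null 2 and wild-type 1 lay below background, and wild-type 2 was the high array. The difference was -0.57 with a standard error of 0.54 (adjusted p = 0.999 from limma), and its interval from -1.99 to 0.86 was the widest of the family. It was -0.73 between the arrays with Xist and -0.40 between the others, where both values were under background. With the pairs as a block it passed an unadjusted p of 0.05 with an adjusted p of 0.814, and over all settings run the adjusted p lay between 0.814 and 1. Without wild-type 2 the difference was 0.073 and without wild-type 1 it was -1.20, and neither fit passed an unadjusted p of 0.05. Sema5a and Sema7a were the 2 of 31 members past that threshold in the blocked fit, 1 lower and 1 higher in Rspo1-null arrays, where 5.35% of all genes were (2.52% higher, 2.83% lower). Sema5b was flat, with 5.33 and 5.27 in Rspo1-null and 5.34 and 5.31 in wild-type arrays. The window before Sema5a is shown for comparison with that of Sema7a, the other member past the blocked threshold. It lies on the plus strand at chr15:32244563-32244812 of GRCm38.p6 and holds neither an E-box nor the TCF/LEF core, so it has no capitals.
Sema5a: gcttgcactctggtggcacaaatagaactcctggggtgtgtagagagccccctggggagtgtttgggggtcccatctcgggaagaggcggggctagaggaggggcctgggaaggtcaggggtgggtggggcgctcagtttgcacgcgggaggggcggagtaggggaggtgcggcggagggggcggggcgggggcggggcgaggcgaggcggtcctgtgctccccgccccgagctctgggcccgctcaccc

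**Figure D3:**
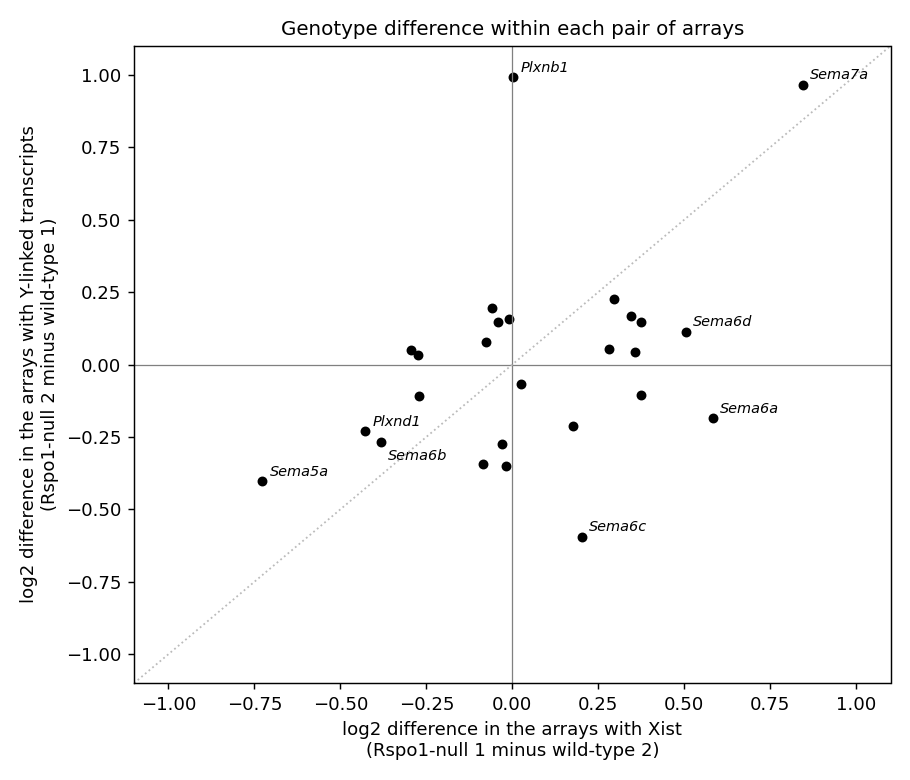
Log2 difference, Rspo1-null minus wild-type, between the arrays with Xist (x axis) and between those with Y-linked transcripts (y axis), 1 array against 1 in each, for the 26 members that were not dim. The dotted line marks equal differences. Sema7a lies at 0.85 and 0.97 near this line, Plxnb1 at 0.0019 and 0.99, where its wild-type 1 value was below background, and Sema5a at -0.73 and -0.40, where both values behind the -0.40 were below background.

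Class 6 semaphorins span the membrane and bind class A plexins. None of the 4 was dim and none parted the genotypes. Sema6a, a ligand of plexins A2 and A4, had 8.18 and 8.42 in the Rspo1-null arrays, against 8.60 and 7.60 in the wild-type arrays, with wild-type 2 as the low array (difference 0.20, standard error 0.37). Without wild-type 1 the difference was 0.70, past an unadjusted p of 0.05, and without wild-type 2 it was -0.30, not past it, so the sign follows which wild-type array is kept. Sema6c, whose high array was wild-type 1, had 6.03 and 6.35 against 6.95 and 5.82. Its difference was -0.20 (standard error 0.41) with all arrays, -0.76 without wild-type 2, past an unadjusted p of 0.05, and 0.37 without wild-type 1, not past it. Sema6b had 5.83 and 6.32 in Rspo1-null and 6.59 and 6.21 in wild-type arrays (difference -0.32, standard error 0.25). It was lower in the Rspo1-null array of both pairs, with differences of -0.38 in the arrays with Xist and -0.27 in the others. Sema6d, a plexin A1 ligand of the developing heart, had 7.27 and 6.61 against 6.50 and 6.77 (difference 0.31, standard error 0.27), with a high value in Rspo1-null 1.

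Class A plexins are the partners of neuropilins and the receptors of class 6 semaphorins. Plxna1 had 9.37 and 9.35 in the Rspo1-null arrays, against 9.19 and 9.39 in the wild-type arrays, and its difference of 0.07 had an interval from -0.33 to 0.48. Plxna2 had 7.65 and 8.26 in Rspo1-null and 8.11 and 7.69 in wild-type arrays (difference 0.05, standard error 0.28). Its high arrays were Rspo1-null 2 and wild-type 1. Plxna3, a gene of the X chromosome, was high in the opposite pair, with 6.74 and 6.06 against 6.01 and 7.04 (difference -0.12, standard error 0.43). Plxna4 was dim.

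Class B plexins bind class 4 and 5 semaphorins, and plexin B1 can signal together with the receptor kinases Met and Erbb2. Plxnb1 had 5.01 and 5.17 in the Rspo1-null arrays, against 4.18 and 5.01 in the wild-type arrays, with wild-type 1 below background. The log2 difference was 0.50 (standard error 0.31, adjusted p = 0.999 from limma), with no overlap between genotypes. The arrays with Xist differed by 0.0019. Between the arrays with Y-linked transcripts the measured difference was 0.99, of which at least 0.40 lay above the background level. Without wild-type 2, where wild-type 1 alone stood for the wild-type, it was 0.91, past an unadjusted p of 0.05, and without wild-type 1 it was 0.08, not past it. Plxnb2, the receptor of Sema4c, had 7.89 and 7.81 in Rspo1-null and 8.02 and 7.71 in wild-type arrays (difference -0.02, interval -0.48 to 0.44). Plxnb3, also on the X chromosome, had 4.42 and 5.41 against 5.22 and 4.48, above background only in Rspo1-null 2 and wild-type 1. The partners showed no parting of the genotypes. Met had 9.05 and 8.97 in Rspo1-null and 8.24 and 9.38 in wild-type arrays, and Erbb2 had 7.52 and 8.50 against 8.25 and 7.15.

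Plxnd1, the receptor of Sema3e, was the member with the lowest unadjusted p after Sema7a. It had 5.10 and 5.33 in the Rspo1-null arrays, against 5.56 and 5.53 in the wild-type arrays, and both Rspo1-null arrays were below both wild-type arrays. The log2 difference was -0.33 (standard error 0.16, 95% interval -0.75 to 0.09, adjusted p = 0.999 from limma), or 0.796-fold. It kept its sign within both pairs (-0.43 and -0.23) and in the fits that left out 1 array (-0.45 to -0.21). A difference at least this large in either direction was seen in 16.5% of all genes and in 20.9% of those that were not dim.

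Nrp1, the co-receptor of class 3 semaphorins that also binds VEGF-A, had 5.75 and 5.29 in the Rspo1-null arrays, against 5.06 and 5.45 in the wild-type arrays. Nrp2, which serves Sema3f and VEGF-C, had 5.65 and 4.57 against 4.43 and 5.27, above background only in Rspo1-null 1 and wild-type 2. Both had a log2 difference of 0.26, with standard errors of 0.24 for Nrp1 and 0.47 for Nrp2. In both genes the high arrays were Rspo1-null 1 and wild-type 2, and the Rspo1-null array was the higher one in each pair, by 0.30 and 0.23 for Nrp1 and by 0.37 and 0.15 for Nrp2, where the 0.15 lay between values below background. The window before Nrp2 is shown because it was the only 1 of the 37 with the TCF/LEF core, in capitals. It lies on the plus strand at chr1:62703067-62703316 of GRCm38.p6 and holds no E-box.
Nrp2: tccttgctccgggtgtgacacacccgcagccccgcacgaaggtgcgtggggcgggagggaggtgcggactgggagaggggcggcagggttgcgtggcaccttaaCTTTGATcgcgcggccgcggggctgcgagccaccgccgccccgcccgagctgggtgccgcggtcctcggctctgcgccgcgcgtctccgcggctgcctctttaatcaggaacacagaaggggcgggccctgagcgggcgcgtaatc

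The 5 dim members, where 49.9% of all genes were dim, were Sema4a, Sema4f, Sema4g, Plxna4 and Plxnc1. Their values ran from 3.25 to 4.54, none passed background on any array, and their differences lay between -0.13 and 0.18.

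By rank order alone, most of the measured members followed the split of the arrays that crosses the genotypes. Of the 26 that were not dim, 8 were higher in both arrays with Xist (Rspo1-null 1 and wild-type 2) than in both arrays with Y-linked transcripts, and 10 were lower. These 18 members are 69.2% of the 26, where 48.2% of all genes that were not dim parted the arrays in this way (27.5% higher, 20.7% lower in the arrays with Xist). The 8 were Sema3a, Sema3e, Sema5a, Sema6d, Plxna1, Plxna3, Nrp1 and Nrp2. The 10 were Sema3b, Sema3c, Sema3d, Sema3g, Sema4d, Sema6a, Sema6b, Sema6c, Plxna2 and Plxnb3. Among those above background on all 4 arrays, the widest gap of the first set was that of Plxna3, with a mean 0.85 higher in the arrays with Xist. That of the second set was Sema3d, with a mean difference of -1.07. Other gaps were narrow. In Plxna1 the mean gap was 0.11, with 9.37 in Rspo1-null 1 just above 9.35 in Rspo1-null 2. In Sema4d it was -0.21, with 5.48 in wild-type 2 just below 5.51 in Rspo1-null 2. Sema7a was in neither set, since Rspo1-null 2 lay above wild-type 2, but its mean was 0.80 higher in the arrays with Xist. Several markers of the muscle lineage parted the same arrays. Myog, which encodes the differentiation factor myogenin, had 9.96 and 11.70 in Rspo1-null and 11.07 and 9.56 in wild-type arrays. Pax7, the transcription factor of satellite cells, had 8.17 and 7.10 against 6.38 and 7.85. Pax7 was thus highest in Rspo1-null 1 and lowest in wild-type 1, as was Sema7a. In the limma fit blocked by sex-linked transcripts, Pax7 and Myog also passed an unadjusted p of 0.05, each with an adjusted p of 0.814. All 9 myocyte markers had the order of the 10 genes. The 6 myoblast markers were divided, since Pax7, Myf5 and Vcam1 had the order of the 8, Myod1 and Cdh15 that of the 10, and Itga7 overlapped. The part of the stage of differentiation or the sex of the donors in these values was not tested. The X-linked members Plxna3 and Plxnb3 stood in opposite sets. The spread across the 4 arrays had a median of 0.72 log2 units in the 26 members and of 0.50 in all genes that were not dim.

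**Figure D4:**
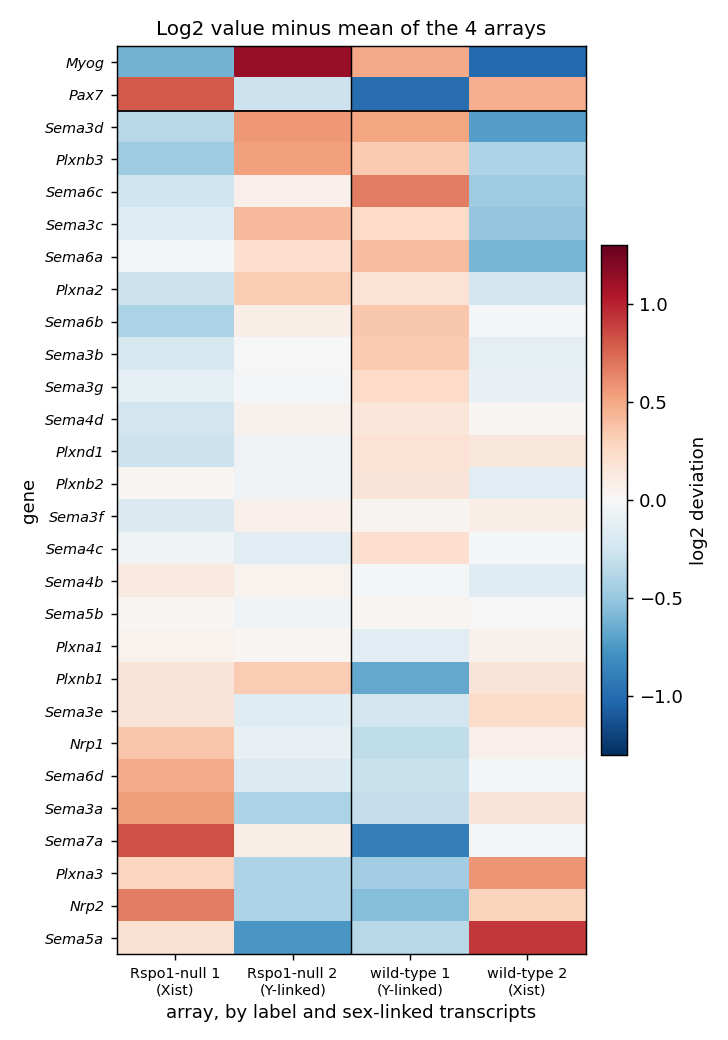
Log2 value of each gene (y axis) in each array (x axis) minus its mean over the 4 arrays, from lower (blue) to higher (red), for Myog and Pax7 and for the 26 members that were not dim, ordered by their gap between the arrays with Xist and the others. The members at the top, such as Sema3d, follow Myog, and those at the bottom, such as Nrp2 and Sema3a, follow Pax7. Sema7a lies among those at the bottom and, like Pax7, is highest in Rspo1-null 1 and lowest in wild-type 1.

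Of 101 genes in 6 lists, 3 passed an unadjusted p of 0.05, where 3.17% of all genes did. The lists hold genes known to act with the family and, as the last list, the other guidance families for comparison. Among 15 partner receptors of plexins and neuropilins, 0 passed an unadjusted p of 0.05, 10 were dim, among them Kdr, and the median difference was -0.04. Nrcam, an adhesion molecule, had 5.04 and 5.63 in Rspo1-null and 5.38 and 5.71 in wild-type arrays, and Ptk7, a kinase-dead receptor, 6.38 and 6.51 against 6.13 and 6.48. Of 5 VEGF family ligands 0 passed, with a median of 0.10. Vegfc, a ligand of Nrp2, had 7.61 and 6.76 against 6.40 and 6.77, and Vegfb had 7.57 and 7.73 against 7.64 and 7.45. Of 16 GTPases and their regulators 1 passed, with a median of 0.15. This was Farp1, an exchange factor for Rac that associates with class A plexins, with 6.51 and 6.65 in the Rspo1-null arrays, against 6.11 and 5.75 in the wild-type arrays. Its log2 difference was 0.65 (standard error 0.19, adjusted p = 0.999 from limma), or 1.57-fold. The call was lost without Rspo1-null 1 (difference 0.72), without Rspo1-null 2 (0.58), without wild-type 2 (0.47), with the replicate block and in the methods' one-way ANOVA, and the adjusted p lay between 0.675 and 1 over all settings run.

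Of 19 cytoskeletal effectors, such as the Mical oxidases and the collapsin response mediators, 0 passed, with a median of 0.01. Limk2, a kinase that inactivates cofilin, had 5.56 and 5.59 in Rspo1-null and 5.77 and 6.11 in wild-type arrays, and Crmp1 had 4.68 and 4.62 against 4.86 and 4.92, with both Rspo1-null arrays below background. Of 6 proteases that cut semaphorins or their receptors, Pcsk5, a proprotein convertase, was the 1 past an unadjusted p of 0.05, and it was dim, with 3.40 and 3.45 against 3.84 and 3.96. Its call was lost after cyclic loess, with the replicate block, and without Rspo1-null 1, Rspo1-null 2 or wild-type 2. Of 40 genes of the other guidance families (Slit, netrin and ephrin ligands with their receptors), 1 passed, with a median of -0.02. This was Efna1, an ephrin ligand, with 4.67 and 4.22 in the Rspo1-null arrays, both below background, against 5.01 and 5.46 in the wild-type arrays. It was at least 1.39-fold lower against the background level (adjusted p = 0.999 from limma). It no longer passed an unadjusted p of 0.05 without Rspo1-null 2, without wild-type 2, with the replicate block and in the methods' one-way ANOVA, and its adjusted p lay between 0.683 and 1 over all settings run.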

How the data were processed

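The values deposited by the authors are on the log2 scale, with 1 value for each gene on each array, hybridised with cDNA from 100 ng of total RNA. RMA and Partek are named in the submitters' processing notes. RMA brings the arrays toward a common distribution, so a shift shared by all genes could not be read from these values. The medians of the deposited values still differed, with 4.64 and 4.62 in Rspo1-null and 4.70 and 4.67 in wild-type arrays. Both Rspo1-null medians lay below both wild-type medians. Values of different genes come from different probes, and their levels were not compared. Of 24973 rows, 24015 carried 1 symbol in the platform's gene table and 958 were not named here. Where 4 symbols had several rows, that with the highest mean stood for the gene.

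Rspo1-null and wild-type arrays were compared in R 4.3.3 (limma 3.58.1). No block was fitted, as in the methods' one-way ANOVA, and p-values were adjusted by Benjamini-Hochberg over 24011 genes. With 2 arrays a group an exact two-sided permutation test of a single gene cannot go below p = 0.333. The number of arrays limits the precision. Alternatives were median centring, cyclic loess, an intensity trend, one-way ANOVA, leaving out dim genes, averaging rows, the replicate block, a block of sex-linked transcripts and leaving out 1 array.

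The members, lists and markers were chosen with earlier results of these data known. All members that were not dim were named. From each list up to 4 genes a direction past an unadjusted p of 0.05 were named, or else the 2 genes not dim with the lowest p. Itgb1, Itga1, Kdr, Met, Erbb2 and the array values of the dim Plxnc1 were added as known partners after the values had been seen. Promoter windows came from RefSeq (GRCm38.p6), and 5 members had no match there (Plxna1, Plxna4, Sema3b, Sema3f and Sema6a).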

Additional observations from a re-analysis of the deposited data

How the results depend on the processing

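No gene passed an adjusted p of 0.05 with limma, with either block or with the methods' one-way ANOVA. At an unadjusted p of 0.05, 760 genes passed (288 higher and 472 lower in Rspo1-null arrays), against 435 higher and 317 lower after median centring and 346 higher and 337 lower after cyclic loess. The count was 265 among genes that were not dim. Leaving out 1 array gave 540 to 1711 genes, the 1711 without wild-type 2. Of the 31 members 0 passed in the settings with all arrays and no block. The pathway lists held 3 such genes, and 3 to 6 without 1 array, the 6 without wild-type 2. The members' median difference of 0.0012 lay between -0.0967 and 0.0215 in these fits.

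With the replicate block 400 genes, 0 members and 2 pathway genes passed. Same-numbered arrays share only a number, and their deviations correlated at -0.358 over genes. The crossed numbers, which are the pairs of arrays with the same sex-linked transcripts, were tried as a block after the values had been seen, and gave 1284 genes, 2 members and 9 pathway genes.

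Of 208 differences of the 26 members that were not dim, over all settings that keep the 4 arrays, 200 kept their sign and their side of the unadjusted threshold, 2 came to pass it and 6 changed sign. The sign changes were Plxnb2 (0.0355) and Sema5b (0.0318) after median centring and Plxna1 (-0.0074), Plxna2 (-0.0158), Sema3e (-0.0835) and Sema5b (0.0142) after cyclic loess, and the cause was not tested. Leaving out 1 array changed the sign in 18 members: Nrp2 (-0.28 to 0.80), Plxna1 (-0.022 to 0.17), Plxna2 (-0.25 to 0.36), Plxna3 (-0.64 to 0.39), Plxnb2 (-0.17 to 0.14), Plxnb3 (-0.43 to 0.57), Sema3a (-0.34 to 0.61), Sema3b (-0.45 to 0.016), Sema3c (-0.12 to 0.63), Sema3d (-0.42 to 0.82), Sema3e (-0.24 to 0.24), Sema3f (-0.25 to 0.0092), Sema3g (-0.32 to 0.022), Sema5a (-1.20 to 0.073), Sema5b (-0.053 to 0.010), Sema6a (-0.30 to 0.70), Sema6c (-0.76 to 0.37) and Sema6d (-0.019 to 0.64). In the other 8 (Nrp1, Plxnb1, Plxnd1, Sema4b, Sema4c, Sema4d, Sema6b and Sema7a) it did not change the sign. Signal over background limits 6 of the 26, which had 1 or 2 arrays under the background level.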
